A study of Mus musculus with 12 samples.

Results

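Interferon-stimulated genes (ISGs) were followed in CD4+ T cells from mice with 2 genotypes of Rasgrp1, in total RNA and in ribosome-protected fragments (RPF, the stretches of mRNA shielded by ribosomes from nuclease). The members were a list of 44 type I and type II interferon-responsive genes, and 41 of them had a row of their own among the 45669 rows of the deposited count table. The other 3 shared a row with a neighbour: Ifi203 with Mndal, Gbp4 with Gbp8, and Gbp6 with Gm43302. The cells came from lymph nodes of C57BL6 mice aged 12 weeks and were purified by negative selection on magnetic beads. One genotype was WT/WT. The other was homozygous for Anaef, a missense allele of Rasgrp1, which encodes the Ras guanine nucleotide exchange factor that links the T cell receptor to Ras. Total RNA was taken from 20000 cells per sample, 4 samples per genotype (WT 1 to WT 4 and Anaef 5 to Anaef 8). Footprints were made from the remaining cells, pooled 2 samples at a time into 2 pools per genotype (WT 1B, WT 2B, Anaef 3B and Anaef 4B), after cycloheximide at 100 µg per ml and digestion with micrococcal nuclease. The labels do not say that the samples were separate animals or which samples went into which pool, so the p-values measure the spread between these samples only.

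Interferons act in a simple relay. Type I interferons bind the receptor pair IFNAR1 and IFNAR2, type II interferon binds IFNGR1 and IFNGR2, and Janus kinases on these receptors start a signal to the nucleus. There the genes are read through the interferon-stimulated response element (ISRE), which is bound by a complex that holds STAT2 and IRF9, or through the gamma-activated site (GAS), which serves mainly type II interferon. The induced genes encode sensors of foreign nucleic acid, proteins that block viral entry, replication or release, large GTPases that attack vacuoles holding microbes, and feedback regulators. Resting lymphocytes carry a low tonic level of many of these transcripts.

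The promoters of the members were searched for the letters of both elements. Of the 44 members, 30 were found in the RefSeq promoter table (GRCm38.p6), each as the 250 bases before and 50 bases after a start. The ISRE core, searched as GAAA, any 2 bases and GAAA on both strands with overlapping matches allowed, was present for 19 of the 30 members (63.3%), against 3.99% of 27025 genes and 3.44% of 32851 promoters of the same length. The GAS core, searched as TTC, any 3 bases and GAA on both strands, was present for 10 (33.3%), against 9.55% of genes and 8.3% of promoters. Both motifs were found for 6 members and neither for 7, which were Ifi44, Ifi47, Irf7, Irf9, Oasl1, Oasl2 and Xaf1. Not in the table were Mx1, Oas2, Zbp1, Dhx58, Ifi27l2a, Rtp4, Ly6a, Usp18, Parp9, Parp14, Gbp4, Gbp6, Gbp9 and Iigp1. A match is a description of the letters and not a measured binding site.

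The 250 bases before the start are shown for an antiviral effector, the ubiquitin-like modifier and a vacuolar GTPase, because they hold the ISRE core once, or several times over, close to the start. Each runs 5′ to 3′ in the direction of the gene, and capitals mark the ISRE core. In Ifit1 the core lies on the opposite strand, so the capitals are its complement. The match nearest the start begins 85 bases before it in Ifit1, 66 in Isg15 and 34 in Igtp.
Ifit1, chr19:34640639-34640888, plus strand: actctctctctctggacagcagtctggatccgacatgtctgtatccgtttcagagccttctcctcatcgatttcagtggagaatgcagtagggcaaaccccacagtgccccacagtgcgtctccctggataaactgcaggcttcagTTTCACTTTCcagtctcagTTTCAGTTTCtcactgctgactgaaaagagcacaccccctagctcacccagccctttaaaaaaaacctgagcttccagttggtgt
Isg15, chr4:156200819-156201068, minus strand: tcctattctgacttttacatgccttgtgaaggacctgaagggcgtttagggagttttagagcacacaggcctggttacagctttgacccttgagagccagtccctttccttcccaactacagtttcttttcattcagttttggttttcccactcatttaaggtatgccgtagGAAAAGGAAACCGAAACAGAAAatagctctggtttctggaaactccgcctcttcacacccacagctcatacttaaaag
Igtp, chr11:58199306-58199555, plus strand: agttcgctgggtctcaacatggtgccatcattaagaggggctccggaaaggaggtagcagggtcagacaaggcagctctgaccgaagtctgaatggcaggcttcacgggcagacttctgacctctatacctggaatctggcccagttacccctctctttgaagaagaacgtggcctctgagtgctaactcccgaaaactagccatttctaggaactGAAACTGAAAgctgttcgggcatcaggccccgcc
Ifit1 holds 2 separate cores. The run of capitals in Isg15 is made of 3 overlapping matches.

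Shorter windows around 1 core are shown for Bst2 and Rsad2, which differ widely in footprints for their RNA. Windows are also shown for the neighbours Igtp and Irgm2, because these windows are close copies of each other.
Bst2, chr8:71537577-71537606, minus strand: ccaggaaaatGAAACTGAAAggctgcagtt
Rsad2, chr12:26456553-26456582, minus strand: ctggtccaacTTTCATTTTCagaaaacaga
Igtp, chr11:58199512-58199541, plus strand: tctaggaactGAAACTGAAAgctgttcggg
Irgm2, chr11:58214903-58214932, plus strand: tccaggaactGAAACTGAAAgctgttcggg
The Igtp and Irgm2 windows were identical at 29 of 30 bases. In Rsad2 the core is on the opposite strand.

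The libraries held 15326842 to 40046317 counts in total RNA and 2868943 to 7009342 in RPF. WT 3 and Anaef 5 were the shallowest total RNA libraries, and mitochondrial genes took 16.4% to 27.8% of total RNA counts, most in WT 3. The 7 CD4 T cell markers were present in every library, with a summed level of 2634 to 4171 CPM (counts scaled to library size) in total RNA. Every one of the 41 members passed the filter on low counts in both assays. The lowest count of a member in any library was 23 in total RNA and 8 in RPF.

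In total RNA the ISGs were spread evenly around no difference between the genotypes, with Zbp1 the member that stood out most. No member passed the test (edgeR quasi-likelihood test, Benjamini-Hochberg adjusted p under 0.05), where 0.0224% of the 17876 genes tested did, all of them lower in Anaef. A log2 fold change (Anaef over WT) above 0 was found for 22 of 41 members (53.7%) against 50.7% of all genes, and the median was 0.02 against 0.01. At an unadjusted p under 0.05 there were 3 members, Zbp1, Ifit1 and Xaf1, each with a value above 0. They were 7.32% of the members, against 5.62% of all genes (2.73% above 0 and 2.89% below). The groups did not overlap for 1 member, Zbp1, with Anaef above WT (1.58% of all genes), and for none with Anaef below WT (2.01% of all genes). The limma-voom test called no member. DESeq2, which called many more of all genes than edgeR did, called 1 member, Zbp1. In bulk samples such as these, fewer cells of a type and less RNA per cell cannot be told apart.

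The spread among samples of 1 genotype was of the same order as in other genes. The median SD of log2 CPM within a genotype was 0.34 over the members and 0.36 over the 10034 genes tested in the same range of levels. It was smallest for Samhd1 (0.13) and largest for Rsad2 (1.44), Mx1 (1.11), Oasl1 (1.00) and Dhx58 (0.98). The mean log2 CPM over the 41 members was 5.65 in WT 1, 5.60 in WT 2, 5.10 in WT 3 and 5.10 in WT 4, and 5.30, 5.50, 5.53 and 5.54 in Anaef 5 to Anaef 8. The WT libraries thus lay on both sides of the Anaef libraries. WT 4 was the lowest of the 8 libraries for 16 members and WT 3 for 14, and Anaef 6 was the highest for 10. The share over all genes was not set beside these counts. WT 3, Anaef 5 and WT 4, lowest in the member mean, also had the fewest counts (15326842, 18580747 and 22686730). The part of depth in this was not tested.

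**Figure D1:**
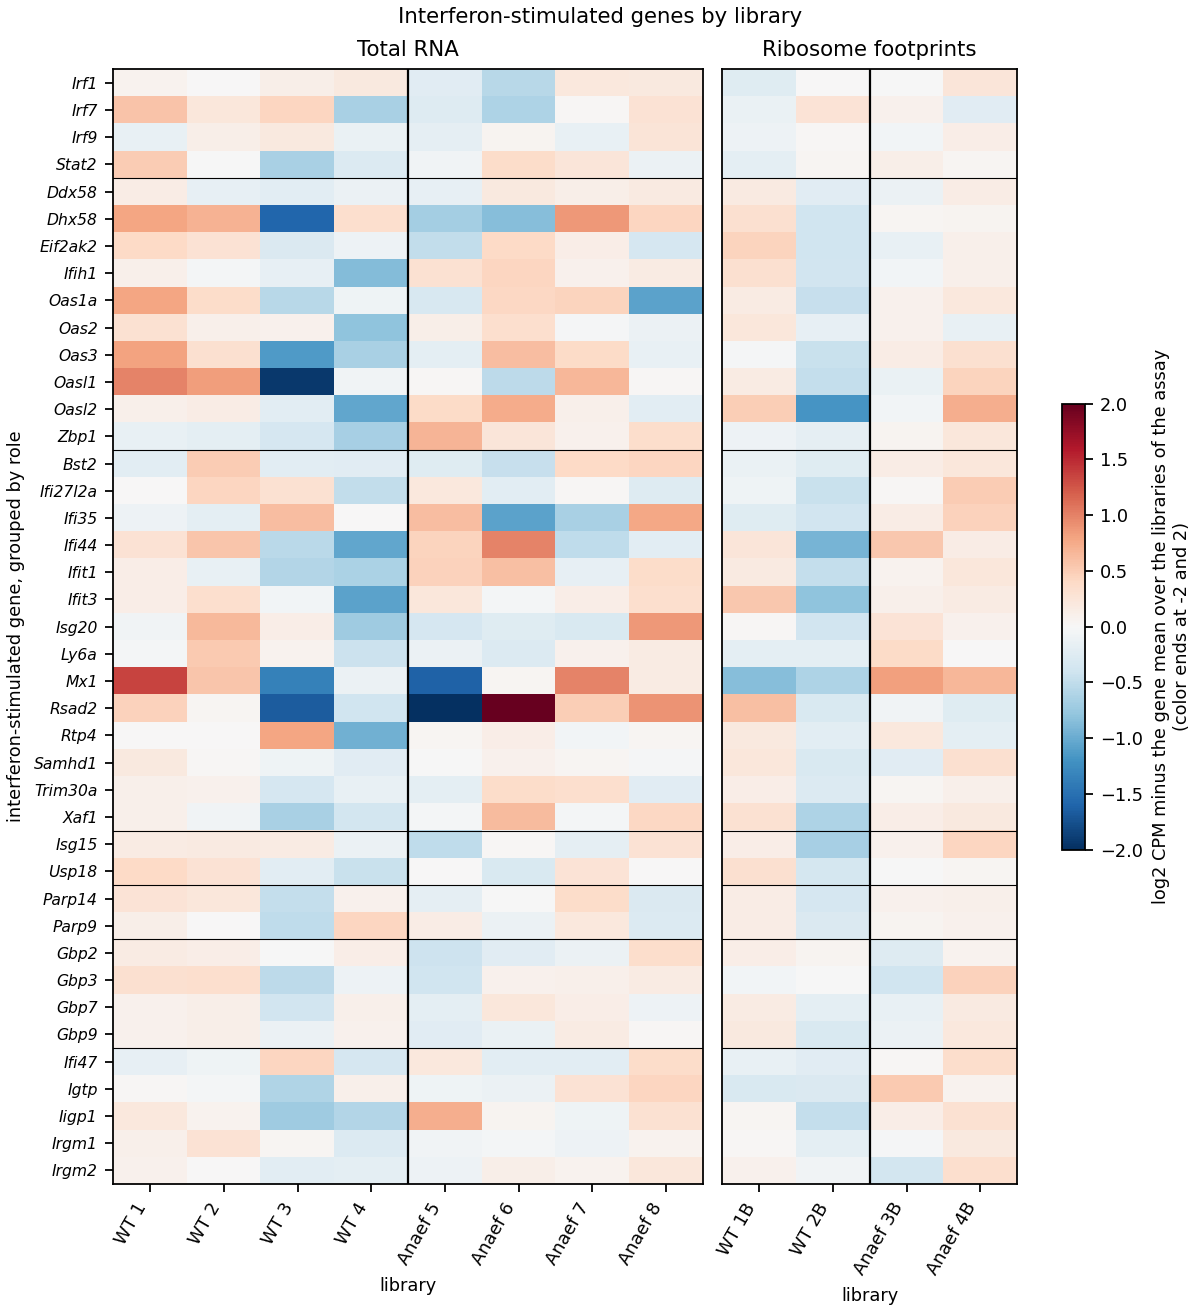
Each row is 1 of the 41 members, grouped by role (from the top: transcription factors, nucleic acid sensors, antiviral effectors, ISG15 system, ADP-ribosyltransferases, guanylate-binding proteins, immunity-related GTPases), and each column is 1 library; color is log2 CPM minus the gene's mean over the libraries of that assay. WT 3 and WT 4 are blue for many members in total RNA, and WT 2B is blue in RPF, where it was the lowest pool for 32 of 41 members.

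In footprints most ISGs had a higher mean in Anaef, and this direction was lost when 1 of the WT pools, WT 2B, was left out. No member passed the test and neither did any other of the 9710 genes tested (0%), where 1151 genes (11.9%) had an unadjusted p under 0.05, DESeq2 called 207 genes and limma-voom 0. DESeq2 and limma-voom called no member either. The log2 fold change was above 0 for 35 of 41 members (85.4%), against 50.8% of all genes, with a median of 0.17 against 0.01. The groups did not overlap for 12 members (29.3%), each with Anaef above WT, against 22.3% of all genes, and for none with Anaef below WT, against 22.5%. An unadjusted p under 0.05 was found for 8 members (19.5%), Mx1, Igtp, Ifi35, Ifi27l2a, Bst2, Ly6a, Ifi47 and Oas3. Their values were above 0, as for 4.92% of all genes, with 6.93% below 0 at that p. The smallest adjusted p of a member was 0.344.

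The pool WT 2B was the lowest of the 4 pools for 32 of 41 members (25.4% of all genes tested) and lay below WT 1B for 34 (50.0% of all genes). Relative to WT 1B, the median log2 ratio over the members was -0.42 in WT 2B, -0.07 in Anaef 3B and 0.06 in Anaef 4B. Both Anaef pools were above WT 2B for 35 members and above WT 1B for 14, and WT 1B was above both Anaef pools for 13. With WT 2B left out, 20 of 41 members had a value above 0 and the median was -0.02. With WT 1B left out, 39 did and the median was 0.39. The mean log2 CPM over the members was 6.73 in WT 1B, 6.33 in WT 2B, 6.70 in Anaef 3B and 6.84 in Anaef 4B. With only 2 WT pools, a low WT 2B and a high WT 1B cannot be told apart.

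**Figure D2:**
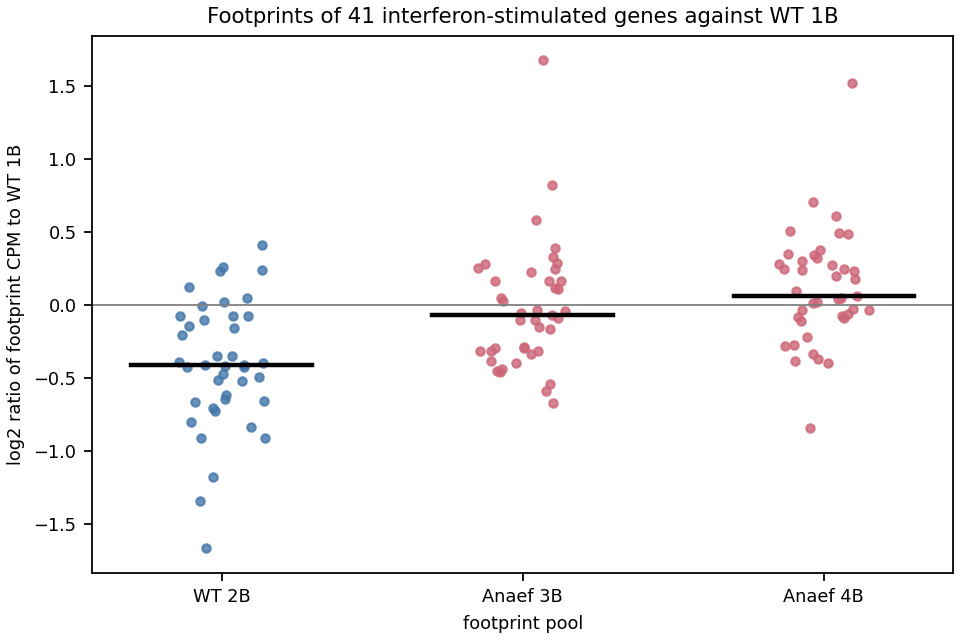
Each point is 1 of 41 members, plotted as the log2 ratio of its footprint CPM in a pool to that in WT 1B, and the bar is the median of the pool. WT 2B sits below the line at 0 for 34 members with a median of -0.42, while the medians of the Anaef pools are -0.07 and 0.06.

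Among the 4 transcription factors that drive ISGs, Stat2 and Irf9 encode parts of the ISRE-binding complex, Irf7 amplifies type I interferon production and Irf1 acts downstream of both interferon types. In total RNA 1 of 4 had a log2 fold change above 0 (median -0.08), and in RPF 3 of 4 (median 0.12). Irf7 was 38.3, 30.2, 34.8 and 16.6 CPM in the WT libraries and 21.7, 16.9, 26.2 and 31.5 CPM in Anaef 5 to Anaef 8, with the lowest 2 values in WT 4 and Anaef 6 and groups that overlapped. Its log2 fold change of -0.31 (SE 0.29) was the lowest of the 41 members in total RNA, with an edgeR adjusted p of 0.966. In footprints it was 68.8 and 91.5 CPM in the WT pools and 80.3 and 64.9 CPM in the Anaef pools, also overlapping. Irf1, Irf9 and Stat2 had values between -0.16 and 0.16 in total RNA and between 0.08 and 0.23 in RPF.

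The 10 nucleic acid sensors gave 6 values above 0 in total RNA (median 0.14) and 8 in RPF (median 0.14). Zbp1 (ENSMUSG00000027514, chr2:173206612-173218923, minus strand, GRCm38), a sensor of Z-form nucleic acid that can start necroptosis, had the smallest p of any member in total RNA. It was at 174, 169, 154 and 122 CPM in WT 1 to WT 4 and at 310.3, 228, 205 and 246 CPM in Anaef 5 to Anaef 8. Every Anaef library was above every WT library, and Anaef 5 was the highest. The means were 155 ± 23.5 and 248 ± 45.1 CPM (SD, n = 4 each) and the log2 fold change was 0.68 (SE 0.17, edgeR unadjusted p = 0.00246, adjusted p = 0.494). DESeq2 gave an adjusted p of 0.0417 for nearly the same value, 0.69. Over the other alternatives and with each library left out, edgeR and limma-voom kept the value between 0.55 and 0.76, with adjusted p from 0.220 to 0.932. In footprints Zbp1 was 151 and 143 CPM in the WT pools and 169 and 189 CPM in the Anaef pools, again without overlap, with a log2 fold change of 0.28 (SE 0.14, edgeR adjusted p = 0.489).

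Ifih1, which encodes the RNA sensor MDA5, was 35.8, 32.6, 29.7 and 18.3 CPM in WT and 41.2, 45.0, 35.4 and 37.3 CPM in Anaef total RNA. WT 4 was far below the rest, and WT 1 lay just above Anaef 7, so the groups overlapped (log2 fold change 0.45, SE 0.22, edgeR adjusted p = 0.896). Its footprints were 141 and 86.7 CPM in the WT pools and 108 and 121 CPM in the Anaef pools, with both Anaef pools between the WT pools. Oas3, of the 2′,5′-oligoadenylate synthetases that activate RNase L, had 161 and 119.9 CPM in WT and 181 and 204 CPM in Anaef footprints, which did not overlap. Its log2 fold change there was 0.45 (SE 0.18, edgeR adjusted p = 0.412), against 0.17 (SE 0.38) in total RNA, where the 4 WT libraries ranged from 53.2 to 204 CPM.

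Oas2 and Oasl2 stood apart by how few footprints they had for their RNA. Oas2 total RNA was 174, 152, 151 and 81.2 CPM in WT and 154, 178, 139 and 130.4 CPM in Anaef, with WT 4 the lowest. Its footprints were 22.3 and 17.0 CPM in WT and 20.1 and 17.1 CPM in Anaef. Oasl2, a ubiquitin-like relative of the synthetases, was 118, 122, 95.7 and 53.4 CPM in WT and 144, 184, 118 and 95.0 CPM in Anaef total RNA, overlapping, while its footprints were 10.0 and 3.16 CPM in WT and 6.88 and 11.9 CPM in Anaef. The remaining sensors were Ddx58 (RIG-I), Dhx58 (LGP2), Eif2ak2 (the kinase PKR), Oas1a and Oasl1. Their log2 fold changes ran from -0.23 to 0.18 in total RNA and from -0.11 to 0.29 in RPF.

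The antiviral effectors made up the largest role group, 14 members with their own rows. In total RNA 10 of 14 were above 0 (median 0.06), and in RPF 13 of 14 (median 0.30). Ifit1 (ENSMUSG00000034459, chr19:34640871-34650009, plus strand), which binds viral RNA lacking host cap methylation, was 82.7, 68.2, 50.3 and 48.6 CPM in WT and 104, 114, 67.2 and 97.4 CPM in Anaef total RNA. Anaef 7 lay below WT 1 and WT 2, so the groups overlapped (log2 fold change 0.62, SE 0.22, edgeR unadjusted p = 0.0191, adjusted p = 0.84). In footprints it was 212 and 134 CPM in the WT pools and 197 and 218 CPM in the Anaef pools, where WT 1B was above Anaef 3B. Xaf1, an interferon-induced partner of the apoptosis inhibitor XIAP, was 69.7, 62.2, 41.5 and 50.3 CPM in WT and 63.2, 101, 63.2 and 86.8 CPM in Anaef total RNA. WT 1 was above Anaef 5 and Anaef 7 (log2 fold change 0.49, SE 0.22, edgeR unadjusted p = 0.0473, adjusted p = 0.874), and its footprints of 83.1 and 44.2 CPM in WT and 74.0 and 77.1 CPM in Anaef also overlapped.

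Rsad2, which encodes the radical-SAM enzyme viperin, had the highest fold change in total RNA, most of which came from 1 library. It was 11.0, 8.21, 2.53 and 6.05 CPM in WT 1 to WT 4 and 1.85, 39.1, 11.3 and 14.9 CPM in Anaef 5 to Anaef 8, so the Anaef group held both the lowest and the highest of the 8 libraries. The log2 fold change was 1.26 (SE 0.72, edgeR adjusted p = 0.916) and 0.42 without Anaef 6. Footprints were near the lower end of detection, 34 and 11 counts in the WT pools and 11 and 8 in the Anaef pools, which is 5.02 and 2.67 CPM in WT and 3.15 and 2.79 CPM in Anaef. Mx1, an interferon-induced dynamin-like GTPase, gave the smallest p of any member in RPF on equally low counts, 14 and 10 in the WT pools and 23 and 17 in the Anaef pools. These were 2.07 and 2.43 CPM in WT and 6.60 and 5.93 CPM in Anaef, without overlap (log2 fold change 1.49, SE 0.40, edgeR unadjusted p = 0.00824, adjusted p = 0.344). In total RNA Mx1 was 20.6, 11.9, 3.16 and 7.49 CPM in WT and 2.64, 8.30, 16.1 and 9.12 CPM in Anaef, spread widely within both groups, with a log2 fold change of -0.26 (SE 0.59).

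Bst2, Ifi27l2a, Ifi35 and Ly6a had footprint values in which both Anaef pools were above both WT pools. Bst2 (ENSMUSG00000046718, chr8:71534255-71537456, minus strand), the tetherin that holds budding virus at the cell surface, was 124 and 115 CPM in the WT pools and 150.0 and 158 CPM in the Anaef pools (log2 fold change 0.36, SE 0.14, edgeR adjusted p = 0.401). Its total RNA was 4.58, 7.53, 4.59 and 4.53 CPM in WT and 4.49, 3.86, 6.99 and 7.13 CPM in Anaef, overlapping. Ifi27l2a, a small interferon-induced protein, was 174 and 136 CPM in WT and 188 and 264 CPM in Anaef footprints, the highest in Anaef 4B (log2 fold change 0.54, SE 0.21, edgeR adjusted p = 0.4). Total RNA of Ifi27l2a was 12.3, 16.4, 15.03 and 8.65 CPM in WT and 14.2, 10.6, 12.4 and 10.2 CPM in Anaef, with both the highest and the lowest library in WT.

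Ifi35, an interferon-induced leucine zipper protein, was 27.6 and 25.0 CPM in the WT and 36.1 and 45.0 CPM in the Anaef pools (log2 fold change 0.62, SE 0.20, edgeR adjusted p = 0.351). In total RNA it was 15.2, 14.3, 25.2 and 16.5 CPM in WT and 25.3, 7.81, 10.5 and 28.1 CPM in Anaef, where the Anaef libraries split into 2 high and 2 low. Ly6a encodes Sca-1, a GPI-anchored surface protein of activated and memory T cells. Its footprints were 422 and 420.3 CPM in the WT and 630.3 and 483 CPM in the Anaef pools (log2 fold change 0.40, SE 0.16, edgeR adjusted p = 0.403), and the pair of WT pools was nearly equal. Total RNA of Ly6a was 105, 155, 114 and 80.5 CPM in WT and 99.8, 89.5, 114 and 120.4 CPM in Anaef, overlapping.

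Samhd1, the dNTP triphosphohydrolase that starves reverse transcription, was the steadiest member in total RNA but not in footprints. It was 974, 858, 801 and 719 CPM in WT and 842, 896, 869 and 829.9 CPM in Anaef total RNA, and the Anaef values all lay inside the WT range. Its footprints were 198 and 137 CPM in WT and 145 and 211 CPM in Anaef, with the highest in Anaef 4B. The other effectors with their own rows were Ifit3, Isg20, Rtp4, Trim30a and Ifi44. Their log2 fold changes lay between -0.04 and 0.34 in total RNA and between 0.02 and 0.56 in RPF, and of these Isg20, an exonuclease, had Anaef footprints above WT without overlap. Ifi203, a DNA-binding PYHIN protein whose row is shared with Mndal, had a log2 fold change of 0.06 in total RNA and -0.01 in RPF.

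Isg15 and Usp18 are the ubiquitin-like modifier and the protease that removes it and restrains the type I receptor. Isg15 (ENSMUSG00000035692, chr4:156199424-156200818, minus strand) was 8.98, 9.05, 8.94 and 7.37 CPM in WT and 5.60, 8.16, 7.03 and 9.78 CPM in Anaef total RNA, overlapping, with the lowest value in Anaef 5. In footprints it was 159.6 and 91.5 CPM in the WT and 155 and 196 CPM in the Anaef pools, where WT 2B was well below the other 3 pools (log2 fold change 0.48, SE 0.27, edgeR adjusted p = 0.528). Usp18 gave -0.04 (SE 0.24) in total RNA and -0.01 (SE 0.24) in RPF. The ADP-ribosyltransferases Parp9 and Parp14 lie close together on chromosome 16. Parp14 was 183, 176, 109 and 161 CPM in WT and 133, 151, 194 and 124 CPM in Anaef total RNA, with WT 3 the lowest and Anaef 7 the highest. Its log2 fold change was -0.07 (SE 0.20), and 0.02 without WT 1 or without Anaef 8. In footprints Parp14 was 704 and 507 CPM in WT and 678 and 685 CPM in Anaef, both Anaef pools lying between the WT pools.

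The guanylate-binding proteins coat and break open pathogen vacuoles. Gbp2, Gbp3, Gbp7 and Gbp9 gave 1 of 4 values above 0 in total RNA (median -0.06) and 3 of 4 in RPF (median 0.05), the smallest median of any role group in footprints. Gbp3 was 9.06, 9.21, 5.06 and 6.81 CPM in WT and 5.55, 7.75, 7.84 and 8.15 CPM in Anaef total RNA, and all Anaef values lay inside the WT range. Its footprints were 35.6 and 36.7 CPM in WT and 28.1 and 50.6 CPM in Anaef, the Anaef pools lying on either side of the WT pools. In the shared rows, Gbp4 with Gbp8 gave 0.20 in total RNA and 0.25 in RPF, and Gbp6 with Gm43302 gave 0.23 and 0.80. The Gbp6 row had 25.0 and 20.6 CPM in the WT pools and 35.3 and 44.7 CPM in the Anaef pools (edgeR adjusted p = 0.344).

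The immunity-related GTPases share the attack on vacuoles, with Irgm1, Irgm2 and Igtp as regulators that guard host membranes and Iigp1 as an effector that loads onto the vacuole. In total RNA 4 of 5 were above 0 (median 0.16), and in RPF 5 of 5 (median 0.38), the highest median of the role groups. Igtp (ENSMUSG00000078853, chr11:58199556-58207591, plus strand) was 182, 175, 119 and 193 CPM in WT and 169.8, 166, 219 and 241 CPM in Anaef total RNA, overlapping. Its footprints were 80.3 and 81.3 CPM in the WT and 142 and 104 CPM in the Anaef pools, without overlap (log2 fold change 0.60, SE 0.19, edgeR unadjusted p = 0.0157, adjusted p = 0.347). Irgm2, whose promoter window differs from that of Igtp at 1 base and whose annotated exons overlap those of Igtp on the same strand, gave 0.01 (SE 0.24) in footprints.

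Iigp1 was 34.0, 30.9, 18.0 and 19.6 CPM in WT and 48.4, 30.5, 27.6 and 36.3 CPM in Anaef total RNA, with Anaef 5 the highest and Anaef 7 and Anaef 6 below WT 1 and WT 2. The log2 fold change was 0.47 (SE 0.26, edgeR adjusted p = 0.915). Its footprints were 104 and 72.6 CPM in WT and 112 and 125 CPM in Anaef, without overlap (log2 fold change 0.42, SE 0.21, edgeR adjusted p = 0.463). Ifi47 was 257, 270.5, 385 and 227 CPM in WT and 332, 249, 249 and 369 CPM in Anaef total RNA, with the highest library, WT 3, in the WT group. In footprints it was 1062 and 1008 CPM in the WT and 1190.3 and 1496 CPM in the Anaef pools (log2 fold change 0.38, SE 0.15, edgeR adjusted p = 0.412).

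Of the 41 members, 20 had a value above 0 in both assays and 15 were below 0 in total RNA and above 0 in RPF. The change in footprints relative to RNA was tested as the genotype by assay interaction over all 12 libraries. Total RNA and footprints came from the same samples, but the fit treats the libraries as independent, since the labels do not say which samples went into which pool. No member passed (edgeR, adjusted p under 0.05), as for 0% of the 19031 genes tested, and none had an unadjusted p under 0.05, against 3.34% of all genes. DESeq2 called 10 genes and no member, and limma-voom called none. The interaction was above 0 for 26 of 41 members (51% of all genes), with a median of 0.15 against 0.01, and with WT 2B left out the median was -0.08. Values ran from -1.68 (SE 1.31) for Rsad2 to 1.73 (SE 1.05) for Mx1, the pair of members with the fewest footprints. The other members among the 4 with the smallest unadjusted p were Ifi27l2a at 0.68 (SE 0.38), Isg15 at 0.63 (SE 0.39) and Zbp1 at -0.41 (SE 0.27).

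**Figure D3:**
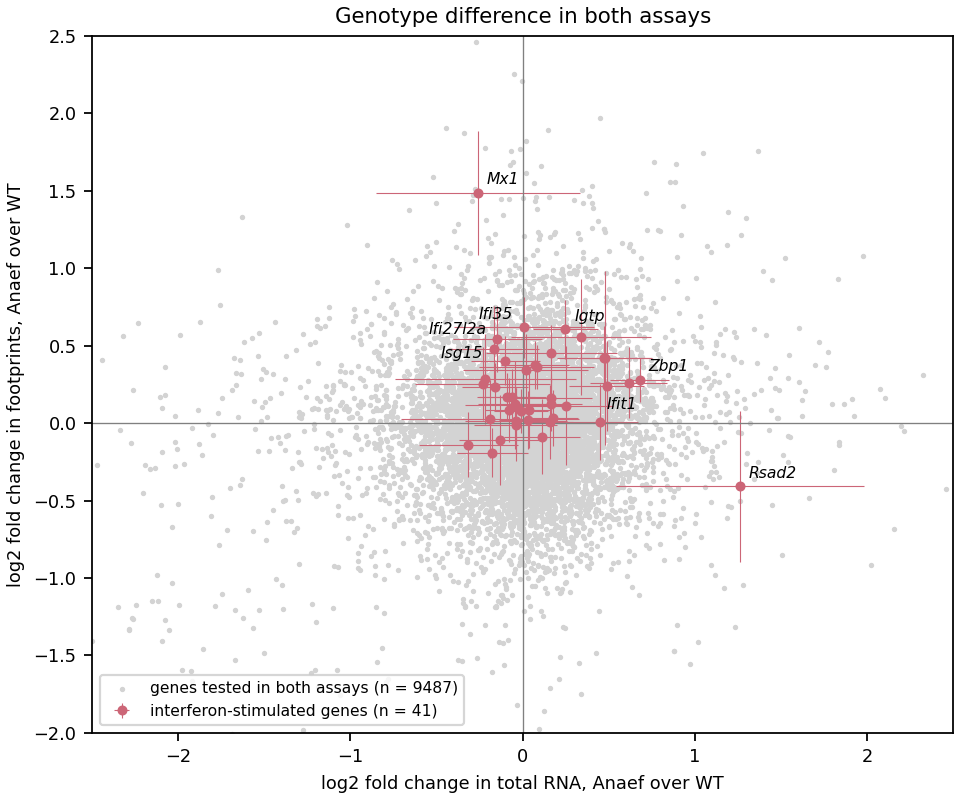
The log2 fold change of Anaef over WT in total RNA (horizontal) is plotted against that in footprints (vertical) for the 41 members (red, bars are standard errors) and the 9487 genes tested in both assays (grey, of which 138 lie outside the axes). Zbp1 lies to the right in total RNA, Mx1 at the top in footprints, and most members lie above the horizontal line. This lean over the list was lost with WT 2B left out. Both Anaef pools were above both WT pools for 12 of the 41 members (29.3%, against 22.3% of all genes).

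The ISGs differed widely from gene to gene in how many footprints they had for their RNA. In WT cells, 20 members had more footprints than total RNA (a log2 ratio above 0) and 7 fewer (edgeR, adjusted p under 0.05), 27 in all (74% of genes), where 19.6% of 17775 genes had more and 54.4% fewer. Among protein-coding genes alone, 26.4% of 11909 had more and 39.4% fewer. Because the assays used different library preparations and were scaled to each other by TMM, a value is read against other genes and not against 0. The median log2 ratio was 0.70 over the members and -0.36 over protein-coding genes, and 27 of 41 members lay above the latter. In Anaef cells 23 members had more and 8 fewer (16.4% and 50.8% of 18032 genes), and 29 of 41 lay above the median of protein-coding genes. Of 12021 protein-coding genes tested in Anaef, 21.6% had more and 36.3% fewer. In Anaef 31 members were called in all (67.1% of genes).

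The highest ratios in WT belonged to Bst2 at 3.77 (SE 0.26), Isg15 at 3.16 (SE 0.25) and Ifi27l2a at 2.85 (SE 0.27). Their proteins are small, with coding lengths of 516, 483 and 270 bases in merged exons of 903, 756 and 463 bases. The lowest ratios belonged to Oasl2 at -4.54 (SE 0.58), Oas2 at -3.54 (SE 0.37) and Samhd1 at -3.04 (SE 0.23). For these the coding lengths were 1527, 2328 and 2067 bases of 6374, 4451 and 9150 exon bases. In Anaef the same 3 genes were highest, with Bst2 at 4.02, Isg15 at 3.77 and Ifi27l2a at 3.50. At the low end were Oasl2 at -4.62, Oas2 at -3.77 and Rsad2 at -3.24, with Samhd1 at -3.03. Footprints come from the coding part only while total RNA counts also hold untranslated exons, and the headers call the footprint counts masked without saying what was masked. The part of these 2 features in the ratios was not tested.

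Grouped by role, the median WT ratio was 2.17 for the ISG15 system, 1.36 for the ADP-ribosyltransferases, 1.07 for the immunity-related GTPases, 1.00 for the guanylate-binding proteins, 0.67 for the transcription factors, 0.27 for the sensors and -0.32 for the effectors. The effectors ran from Bst2, the highest of all members, to Samhd1, and the sensors held the lowest values, those of Oasl2 and Oas2.

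**Figure D4:**
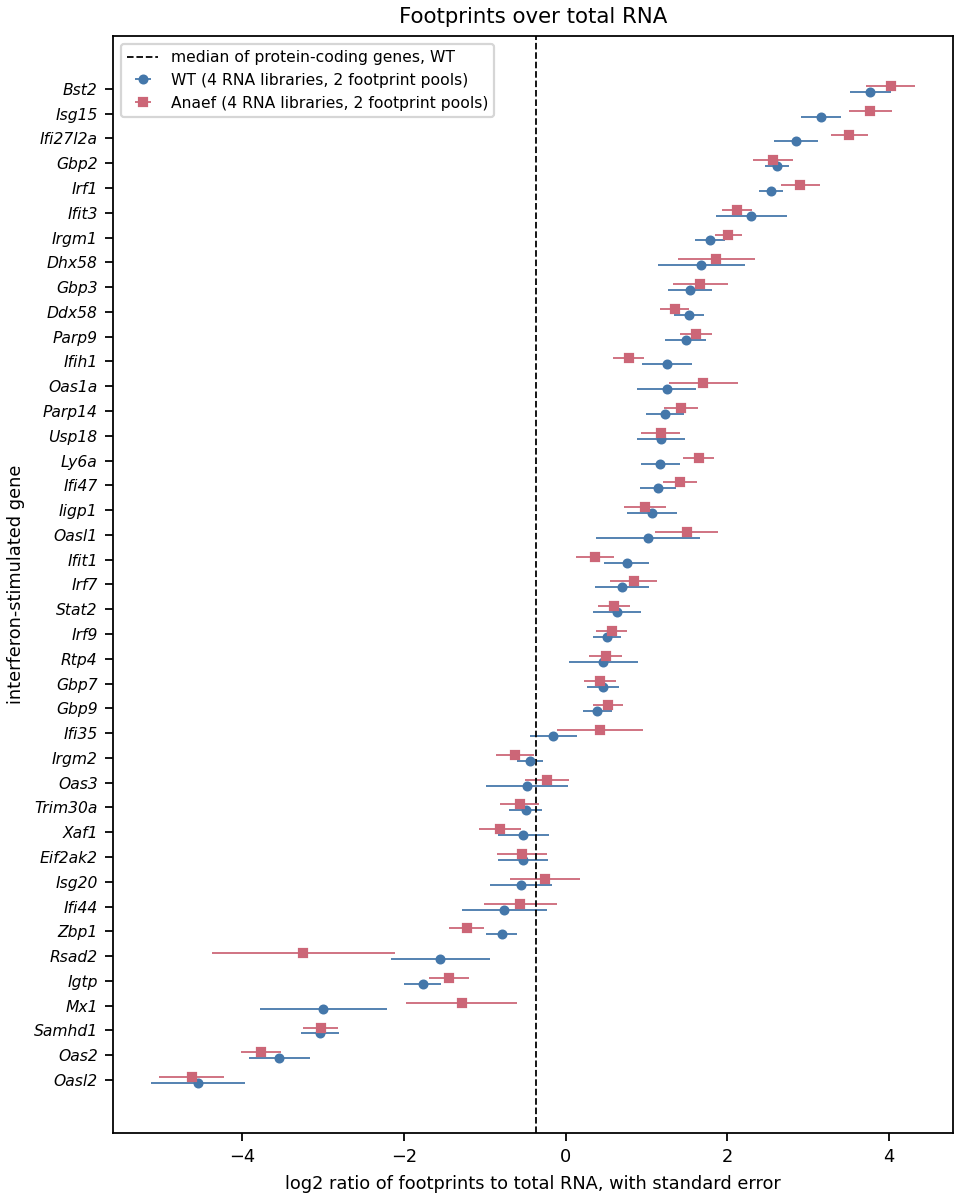
For each of the 41 members, the log2 ratio of footprints to total RNA is shown for WT (blue circles) and Anaef (red squares) with standard errors, ordered by the WT value. The dashed line is the median of protein-coding genes in WT, at -0.36. Bst2, Isg15 and Ifi27l2a are at the top and Oasl2, Oas2 and Samhd1 at the bottom, and the WT and Anaef symbols lie farthest apart for Rsad2 and Mx1, which have wide errors.

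Levels were compared between genes per length, as TPM (the share of each gene in its library after division by length), with exon length for total RNA and coding length for RPF. In WT total RNA the highest members were Ifi47 at 150.1 ± 16.2 TPM, Ly6a at 129 ± 52.4 TPM and Samhd1 at 125 ± 36.5 TPM (SD, n = 4). These 3 did not differ beyond their spread. The lowest were Rsad2 at 2.34 ± 1.395 TPM, Gbp3 at 3.26 ± 1.38 TPM and Mx1 at 4.19 ± 3.12 TPM, which also overlapped. In WT footprints Ly6a at 984 ± 65.1 TPM was above Ifi47 at 771 ± 24.7 TPM and Ifi27l2a at 536 ± 55.0 TPM (SD, n = 2). Samhd1, among the top 3 in RNA, was at 75.5 ± 14.1 TPM in footprints, and Mx1 was the lowest at 1.13 ± 0.204 TPM.

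Few or no transcripts were counted of the interferon genes looked up, Ifna1, Ifna2, Ifna4, Ifnb1 and Ifng. Other interferon genes were not looked up, and the treatment of reads shared between genes is not named. Ifnb1, Ifna2 and Ifna4, ligands of the type I receptor, had 0 counts of 243178707 in total RNA and 0 of 17387483 in RPF, which allows levels of up to 0.0123 and 0.173 CPM (3 counts, counting error only). Ifna1 had 1 count in total RNA. Ifng, the type II ligand, had 97 counts in total RNA, in 7 of 8 libraries, and 18 in RPF. The receptors and kinases were expressed: Ifnar1 was 60.0 to 82.3 CPM, Ifngr1 20.3 to 52.2 CPM, Jak1 550.2 to 776 CPM and Tyk2 28.2 to 47.2 CPM over the 8 total RNA libraries. Their log2 fold changes in total RNA were 0.17 for Ifnar1, 0.33 for Ifngr1, 0.07 for Jak1 and -0.12 for Tyk2, none passing the test. Ifngr2 and Jak2 gave -0.19 and -0.08. Socs1, a feedback inhibitor of the kinases, was 0.158 to 2.28 CPM, with a value of -0.87 (SE 0.65). Ifnar2 shared a row with Il10rb, which gave -0.02 in total RNA and -0.25 in RPF.

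Of 79 further genes of the pathway, from ligands and receptors to other interferon-responsive genes, 65 with their own row were tested in total RNA and 63 in RPF. None passed the test in either assay with edgeR. In total RNA 26 of 65 were above 0 (median -0.04), with 2 above and 2 below 0 at an unadjusted p under 0.05. In RPF 38 of 63 were above 0 (median 0.07), with 3 above and 1 below at that p. The other interferon-responsive genes among them gave 17 of 42 above 0 in total RNA (median -0.04). In RPF they gave 28 of 41 (median 0.08), against 35 of 41 members (median 0.17). Both of these counts include the pool WT 2B, without which the direction over the members was lost. Over all genes 50.7% were above 0 in total RNA and 50.8% in RPF. At that p, 2.73% of all genes were above and 2.89% below 0 in total RNA, and 4.92% and 6.93% in RPF.

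Other cell types can bring interferon-induced or interferon-producing cells into a preparation. The summed level of 10 B cell markers was 31.6 to 65.5 CPM in WT and 11.4 to 35.6 CPM in Anaef total RNA, with 0 to 3 of them at 0 in a library. That of 10 myeloid and dendritic cell markers was 35.5 to 40.4 CPM in WT and 18.6 to 28.6 CPM in Anaef, with 0 to 3 at 0. The 6 plasma cell markers summed to 1292 to 6045 CPM in WT and 380 to 777 CPM in Anaef. In footprints the B cell sum was 49.0 to 90.1 CPM in WT and 22.1 to 38.7 CPM in Anaef, and the myeloid sum 33.3 to 49.2 and 20.9 to 38.7 CPM. The plasma cell sum in footprints was 33429 and 13121 CPM in WT 1B and WT 2B and 8841 and 2946 CPM in Anaef 3B and Anaef 4B. Among 6 plasmacytoid dendritic cell markers, Siglech was at most 0.37 CPM in total RNA, and the sum was 39.9 to 43.9 CPM in WT and 34.3 to 85.7 CPM in Anaef. The top value was that of Anaef 6, where Ccr9 was 36.5 CPM and Klk1 27.7 CPM, and the next Anaef library was at 46.6 CPM. In Anaef 6, 10 of the 41 members, Rsad2 among them, had their highest total RNA value. That count was 9 in WT 1 and 8 in Anaef 8, where the plasmacytoid marker sums were 41.2 and 34.3 CPM. No share over all genes was set beside the counts. The 3 Th1 markers Tbx21, Ifng and Cxcr3 summed to 1.03 to 12.6 CPM in WT and 1.85 to 11.5 CPM in Anaef total RNA. In footprints they summed to 40.1 to 50.1 CPM in WT and 54.8 to 60.4 CPM in Anaef, with mean Cxcr3 at 37.4 and 50.6 CPM, Tbx21 at 6.46 and 6.18 CPM and Ifng at 1.15 and 0.779 CPM. The part of these cells in the values of the members was not tested.

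Several members cannot be read alone. Of the 41, 17 share exon positions with another annotated gene, 10 of them with a gene on the opposite strand, and the sources used here do not say whether counting used strand. Igtp and Irgm2 overlap each other, and the Oas, Ifit, Gbp, Irgm, Ly6 and Trim30 families hold related genes. Any reads shared between such genes may have been split or dropped, and how alike their transcripts are was not measured.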

How the data were processed

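The authors deposited 1 table of whole-number counts per gene for 12 libraries, per the file headers, and the headers name the RPF columns as masked without saying what was masked. Per the submitters' processing notes, TopHat 1.4.1 and GRCm38 were used, and nothing read here names the counting program, its strand setting or its treatment of shared reads. Ensembl IDs were matched to symbols for 44595 of 45669 rows through the GENCODE vM21 annotation, and 263 rows joined several genes. Counts were tested with edgeR 4.0.16 (R 4.3.3) by its quasi-likelihood F test with TMM scaling, filterByExpr and Benjamini-Hochberg adjustment over all genes tested, at 0.05. Total RNA (4 against 4), RPF (2 against 2), the genotype by assay interaction and RPF over total RNA within each genotype were fitted. CPM used the TMM-scaled library size of each assay, and log2 CPM a prior count of 2. The fits were tested on simulated data first. Alternatives were DESeq2 1.42.0, limma-voom 3.58.1, RLE scaling, other filters, removal of mitochondrial, immunoglobulin and T cell receptor genes, all libraries in one fit, and each library left out. The members and the lists of roles, pathway genes and markers were chosen with earlier results of these data known, so no p was computed over a list. Full values are printed for members called in any genotype comparison, the 6 with the smallest p in total RNA and in RPF, the 4 in the interaction, the 3 highest and lowest in level and in RPF over RNA, and 1 per role group otherwise; Oas3 was named after its values were seen. Promoter sequences are from RefSeq.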

Additional observations from a re-analysis of the deposited data

Results flagged for a closer look

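In 98 groups of 4 total RNA libraries, each member in each genotype and further genes named by rule, 6 held 1 library whose gap to the nearest other exceeded Dixon's critical value as a share of the range, and chance gives about 1 in 20. Isg20 in Anaef 8 (29.3 CPM), Bst2 in WT 2 (7.53 CPM), Isg15 in WT 4 (7.37 CPM), Gbp3 in Anaef 5 (5.55 CPM), Gbp7 in WT 3 (60.8 CPM) and Gbp9 in WT 3 (123.2 CPM) were the libraries that stood apart from the other 3 of their group. Isg20 and Bst2 were above the others and the remaining 4 below. Of the guanylate-binding protein values, those of Gbp7 and Gbp9 are in WT 3, the shallowest library, and that of Gbp3 is in Anaef 5. The part of depth in them was not tested.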

How the results depend on the processing

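Of 240 recomputed summary values, 218 kept their direction and size class and 22 moved, and of 305 recomputed single-gene values 302 were the same. In total RNA the genes called, 4 by edgeR, were 120 with DESeq2, 2 with limma-voom, 0 without mitochondrial, Ig and TCR genes and 0 to 3 with 1 library left out, and the members called were 0 except with DESeq2 (1, Zbp1). With 1 library left out the Parp14 value ran from -0.21 to 0.02, and it changed sign without WT 1 (0.0152) and without Anaef 8 (0.0183). Members above 0 in total RNA were 17 to 27 with 1 library left out, with medians from -0.03 to 0.07. In RPF the genes called, 0 by edgeR, were 207 with DESeq2, 514 with no filter, 6 without mitochondrial, Ig and TCR genes, and 0 to 211 with 1 pool left out (211 without Anaef 3B). Members above 0 in RPF were 20 to 39 and their median -0.016 to 0.39 with 1 pool left out, the low ends without WT 2B. The interaction called 10 genes with DESeq2 and 0 to 1 with 1 library left out. Members called in RPF over total RNA were 19 to 29 in Anaef and 20 to 29 in WT with 1 library left out. Where 1 pool was left it was assumed to vary like the others. The cause of these differences was not tested. Depth limits Mx1 and Rsad2 in RPF, with 8 to 34 counts per pool. No paired analysis was possible because WT and Anaef share no replicate numbers and the labels do not tie the total RNA samples to the RPF pools they went into.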
